A study of Glycine max with 4 samples.

Results

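Glyma.20G222600 is a soybean gene that the deposited table describes as phosphoenolpyruvate carboxylase kinase 1. It was found as the row of the table with that gene name, 1 of 39505 loci, and it was chosen by its measured FPKM in the leaf groups compared here. Its own difference is therefore given as a description, without a test. It spans 1322 bp of chromosome 20 (45733633 to 45734954, build Gmax2.0). It is annotated as a single gene and is overlapped by 0 other loci of the table. The table shows 4 loci described as PEPC kinases, 3 of them with the same description as this gene.

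Phosphoenolpyruvate carboxylase (PEPC) joins bicarbonate to phosphoenolpyruvate (PEP) and so makes oxaloacetate and releases Pi. The oxaloacetate feeds malate, the citric acid cycle and the carbon skeletons that take up ammonium. PEPC kinase (PPCK) is a very small serine/threonine kinase, related to the calcium-dependent protein kinases but without their calcium-binding part, and it acts on a serine near the start of plant-type PEPC. The phosphorylated enzyme is less sensitive to inhibition by malate. The kinase is known to be controlled largely through the amount of its transcript, which follows light, the clock and metabolites in several plants and rises in Arabidopsis under Pi starvation.

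Pi-deprived leaves (PDL) were compared with Pi-sufficient leaves (PSL). PDL came from seedlings kept for 24 h in a solution with 0 µM KH2PO4, in which K2SO4 replaced the phosphate salt, and PSL from seedlings kept for 24 h at 500 µM KH2PO4. Sulfate supply thus differed between the groups as well, and its part in any difference cannot be told apart from that of Pi. All plants were Williams 82, grown in water culture for 18 days before the change of solution. Each library pooled the first trifoliate leaves of 3 plants, with 2 libraries per group (PDL-1 and PDL-2, PSL-1 and PSL-2), so every mean and SD below has n = 2 in each group.

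Levels are the authors' FPKM, read fragments scaled for the transcript's length and for the size of the library, and can be set beside each other between genes. Differences are log2 fold changes, PDL over PSL, of FPKM + 0.1, with standard errors from limma, which was fitted to the 32686 loci whose mean FPKM reached 0.3. A locus is called higher in PDL where this difference is 1 or more, and lower where it is -1 or less, provided that the unadjusted p does not exceed 0.05. These are the study's thresholds, which it used with Cuffdiff and not limma, so calls here can differ from its own. By this rule 2.03% of the loci tested were called, 1.14% as higher and 0.887% as lower. An unadjusted p of 0.05 or less alone was met by 8.93%. Only 19 loci (0.0581%) had a limma adjusted p under 0.05, and every adjusted p given below is above that limit. Both PDL libraries were above both PSL libraries at 20.2% of the loci tested and below them at 21.1%. With 2 libraries on each side the smallest exact permutation p is 0.333, so single sums and ratios are given as values.

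Per library, tested loci had a median of 6.07 to 6.10 FPKM. The summed FPKM over all loci differed more, from 1661720 in PSL-1 to 2007430 in PSL-2, with both PDL libraries in between. Transcripts of photosynthetic leaf cells, which show that the libraries are leaf, were more abundant in PDL. The 50 loci for chlorophyll-binding proteins and the small subunit of RuBisCO summed to 160200 and 161775 FPKM in PDL-1 and PDL-2, against 124572 and 136484 FPKM in PSL-1 and PSL-2. Of the 47 of them that were tested, 0 were called, beside 2.03% of all loci tested. At 41 both PDL libraries were above both PSL libraries, and at 0 below, beside 20.2% and 21.1% of all loci. The median log2 fold change of the 47 was 0.31, against -0.01 over all loci. In bulk leaves, fewer cells of a type and less RNA per cell cannot be told apart.

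Glyma.20G222600 had 186 and 176 FPKM in PDL-1 and PDL-2, against 92.4 and 75.3 FPKM in PSL-1 and PSL-2. Both PDL libraries were above both PSL libraries, and the groups did not come near each other: the lowest PDL value was 1.91 times the highest PSL value. The level averaged 181 ± 7.12 FPKM in PDL and 83.9 ± 12.03 FPKM in PSL (SD), a fold of 2.16. On the log2 scale the difference was 1.12 with a standard error (SE) of 0.14.

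The gene was among the abundant transcripts of these leaves. It ranked at position 1016 and 1042 of 39505 loci in PDL-1 and PDL-2, against 1935 and 2536 in PSL-1 and PSL-2. Among the 2127 loci with a mean FPKM within 2-fold of its own, from 66.2 to 263, its log2 fold change stood at position 29 from the top. In that band 35 loci had a log2 fold change of at least 1 and 26 of at most -1, and the median absolute value was 0.17. These positions use the contrast by which the gene was picked and describe it only.

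The authors' pooled values for the gene were lower than either library of the group, at 149.7 FPKM for PDL and 70.5 FPKM for PSL. They amounted to 0.827 and 0.840 of the library means in PDL and PSL, whereas the median locus had 1.06 and 1.05. The library columns were used throughout.

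**Figure D1:**
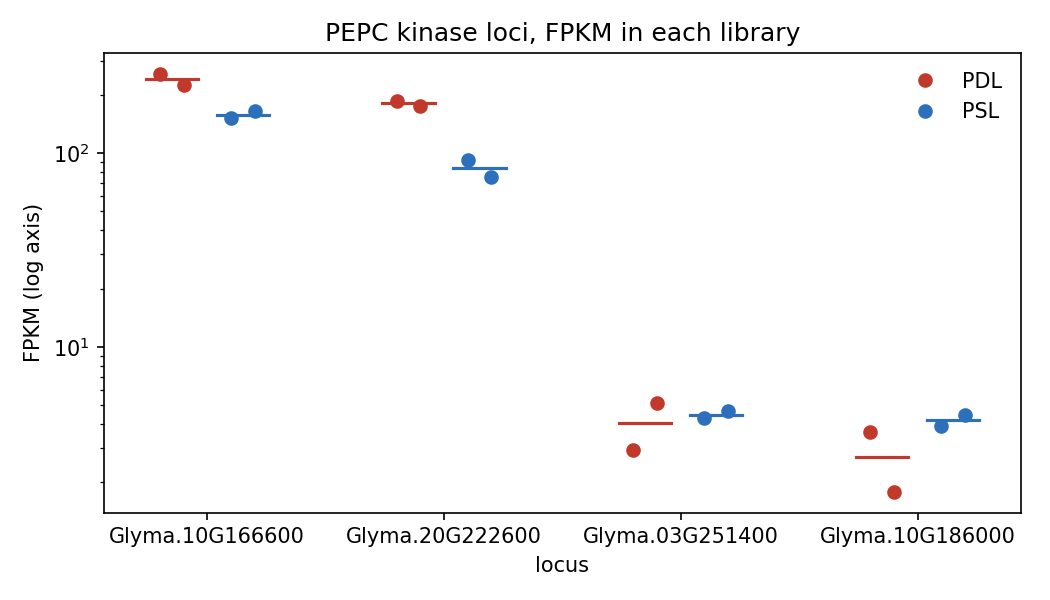
FPKM (log axis) of the 4 PEPC kinase loci in each library, PDL in red and PSL in blue, with 1 point per library and a bar at the group mean. Glyma.20G222600 and Glyma.10G166600 lie between 75.3 and 257 FPKM with PDL above PSL, and the other loci lie at or under 5.10 FPKM.

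The other PEPC kinase loci fell into an abundant gene and a scarce pair. Glyma.10G166600 on chromosome 10 from 40095214 to 40096560, which shares the description of Glyma.20G222600, had 257 and 224 FPKM in PDL, against 151 and 164 FPKM in PSL. Its groups did not overlap either, but it was not called, since its log2 fold change of 0.61 (SE 0.12, limma unadjusted p = 0.00685, adjusted p = 0.471) was under 1. This kinase gene was not part of the choice and was the more abundant of the pair in every library.

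Neither of the scarce loci was called. Glyma.03G251400, described as PEPC kinase 2, on chromosome 3 from 44718795 to 44719725, had 2.95 and 5.10 FPKM in PDL, against 4.27 and 4.65 FPKM in PSL. These groups overlapped, with a log2 fold change of -0.19 (SE 0.30, adjusted p = 0.856 in limma). Glyma.10G186000, a further locus described as kinase 1, on chromosome 10 from 41910777 to 41911697, had 3.63 and 1.79 FPKM in PDL, against 3.91 and 4.43 FPKM in PSL. Both PDL values were below both PSL values, and the log2 fold change of -0.68 (SE 0.38, adjusted p = 0.655 in limma) did not pass. PDL-2 held the low value, and without PDL-1 the locus was called lower (log2 fold change -1.17, unadjusted p = 0.0247 in limma).

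The order of the levels was thus Glyma.10G166600, then Glyma.20G222600, then the scarce pair. The upper neighbours differed in every library, Glyma.20G222600 standing at 0.725 and 0.785 of Glyma.10G166600 in PDL, against 0.611 and 0.459 in PSL. This ratio includes the gene chosen by its difference. Glyma.03G251400 and Glyma.10G186000 changed order between libraries and were not separated beyond their spread. Because these genes are related in sequence and TopHat allowed up to 40 alignments per read, some reads may have been shared between them, and how this touches each level was not tested.

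Summed over the 4 loci, PEPC kinase transcripts reached 449 and 407 FPKM in PDL, against 252 and 249 FPKM in PSL. The sum without Glyma.20G222600 was 263 and 231 FPKM in PDL, against 159 and 173 FPKM in PSL, a fold of 1.49 between the means. Glyma.20G222600 supplied 41.4% and 43.2% of the summed kinase FPKM in PDL, against 36.7% and 30.3% in PSL. Such shares follow the contrast by which the gene was picked and describe it only. The scarce pair supplied 1.46% and 1.69% in PDL, against 3.25% and 3.65% in PSL.

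A RefSeq table of the Glycine_max_v4.0 assembly lists soybean kinase genes with the symbols PPCK1 on chromosome 3, PPCK2 on chromosome 20, and PPCK3 and PPCK4 on chromosome 10. These are the chromosomes of the 4 loci here. The table shares no identifier with the deposited one (0 of 59048 entries), so the symbols were not assigned.

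The PEPC-related kinases, a sister group whose members are longer kinases of the same superfamily, were at low and even levels. Their 6 loci summed to 31.6 and 32.6 FPKM in PDL, against 32.6 and 33.4 FPKM in PSL. Of the 6, 0 were called, beside 2.03% of all loci tested. The most abundant, Glyma.16G199400, had 11.9 and 12.4 FPKM in PDL, against 12.4 and 11.3 FPKM in PSL. The remaining log2 fold changes lay between -0.71 for Glyma.14G179000, at 0.515 and 0.481 FPKM in PDL against 0.870 and 0.879 FPKM in PSL, and 0.15 for Glyma.02G211400. Glyma.10G239600 (-0.09), Glyma.04G097100 (-0.15) and the merged locus Glyma.06G098900,Glyma.06G099100 (-0.08) lay near 0 on this log2 scale. The smallest limma adjusted p of the group was 0.654.

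**Figure D2:**
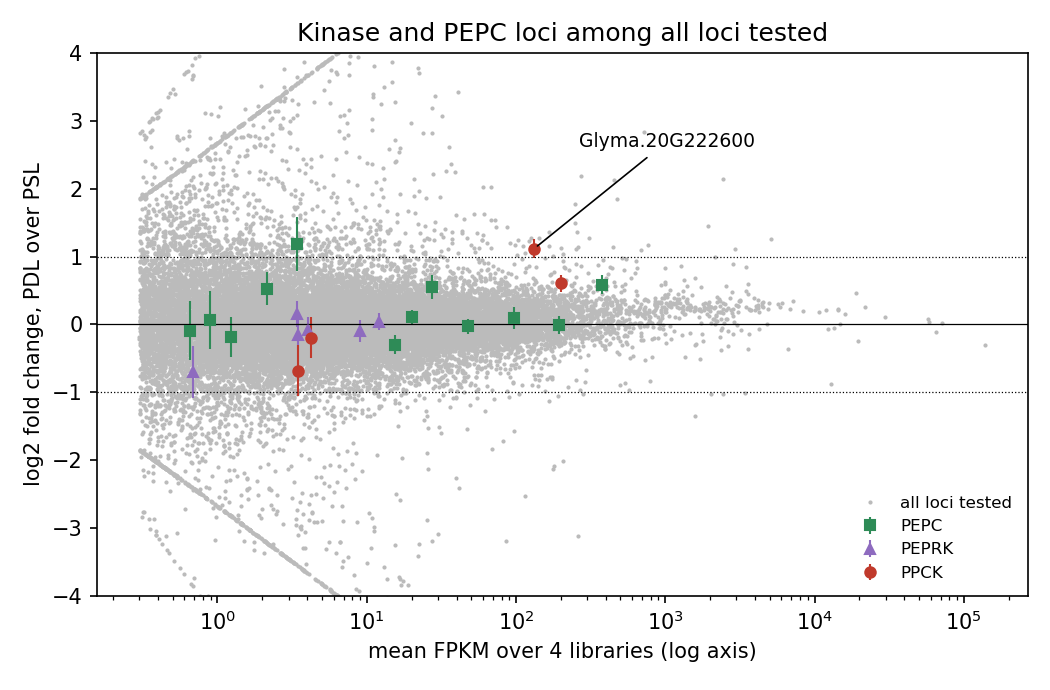
Log2 fold change, PDL over PSL, against mean FPKM over the 4 libraries (log axis) for the loci tested (grey), with PEPC kinases (PPCK), PEPC-related kinases (PEPRK) and PEPC loci in colour, bars giving 1 standard error and dotted lines at 1 and -1. The vertical axis stops at 4 and -4, so 202 loci are not drawn; Glyma.20G222600 stands at 1.12 and Glyma.10G166600 at 0.61.

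The PEPC genes, which encode the enzyme the kinase acts on, were led by a single gene, whose values in PDL both lay above those in PSL. The table holds 16 loci with a PEPC description and the GO term for PEPC activity. Of these 12 were tested, 1 was called higher and 0 were called lower, beside 1.14% and 0.887% of all loci. At 5 of the 12 both PDL libraries were above both PSL libraries, and at 1 below, beside 20.2% and 21.1% of all loci. The median log2 fold change of the 12 was 0.08. The other 4 loci stayed under the filter, with at most 0.175 FPKM in any library.

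Glyma.12G210600, described as PEPC 2, was the most abundant, on chromosome 12 from 36952287 to 36958535. It had 471 and 434 FPKM in PDL, against 276 and 329 FPKM in PSL. The groups did not overlap, and the log2 fold change of 0.58 (SE 0.14, limma unadjusted p = 0.0114, adjusted p = 0.499) was too small for a call. The gene made up 52.4% and 51.6% of the summed PEPC FPKM in PDL, against 42.5% and 43.4% in PSL.

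Glyma.10G205500, on chromosome 10 from 43702049 to 43710768, came next with 190 and 195 FPKM in PDL, against 177 and 212 FPKM in PSL, and its groups overlapped (log2 fold change -0.01, standard error 0.13). It is described as PEPC 4, which in Arabidopsis is the name of the bacterial-type enzyme that lacks the phosphorylated serine. Whether the soybean protein has that serine was not analysed here. Glyma.13G290700, described as PEPC 1, had 109.4 and 90.5 FPKM in PDL, against 85.0 and 102 FPKM in PSL. Its groups overlapped as well, with a log2 fold change of 0.10 (SE 0.16).

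Among the PEPC loci of middle level, Glyma.06G229900 (PEPC 3) had 37.1 and 27.9 FPKM in PDL, against 21.7 and 22.3 FPKM in PSL. Its log2 fold change of 0.55 (SE 0.17, limma unadjusted p = 0.0315, adjusted p = 0.538) had the size seen in Glyma.12G210600, and it was not called. Glyma.12G161300 (PEPC 3) overlapped between the groups, with 45.2 and 48.8 FPKM in PDL, against 49.6 and 46.2 FPKM in PSL. Glyma.06G277500 (PEPC 1) had 21.0 and 20.9 FPKM in PDL, against 18.8 and 20.1 FPKM in PSL, a log2 fold change of 0.11. Glyma.12G229400 (PEPC 3) was the lone tested PEPC locus with both PDL values below both PSL values, at 14.4 and 13.3 FPKM in PDL, against 15.8 and 18.4 FPKM in PSL. Its log2 fold change was -0.30 (standard error 0.14, limma adjusted p = 0.608).

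The PEPC locus that was called, Glyma.02G118400, was a scarce one described as PEPC 4, on chromosome 2 from 11613800 to 11620433. It rose to 5.05 and 4.39 FPKM in PDL, against 1.38 and 2.92 FPKM in PSL, with a log2 fold change of 1.18 (SE 0.39, limma unadjusted p = 0.0363, adjusted p = 0.545). The call was lost without any of PDL-1, PDL-2 and PSL-1, with a log2 fold change of 0.67 without PSL-1, and also with a pseudocount of 1 (log2 fold change 0.90). It lies in a stretch of chromosome 2 between 11463593 and 11620433 that holds 6 of the 16 PEPC loci. In that stretch Glyma.02G117500 had 2.20 and 2.97 FPKM in PDL, against 1.77 and 1.72 FPKM in PSL, and was not called. Glyma.02G117700 had 0.986 and 1.30 FPKM in PDL, against 1.23 and 1.40 FPKM in PSL. Glyma.02G117600, Glyma.02G117900 and Glyma.02G118200 were among the 4 loci not tested, as was Glyma.01G091000. Glyma.13G270400 and Glyma.02G130700, both at most 1.20 FPKM in every library, had log2 fold changes of 0.07 and -0.09.

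**Figure D3:**
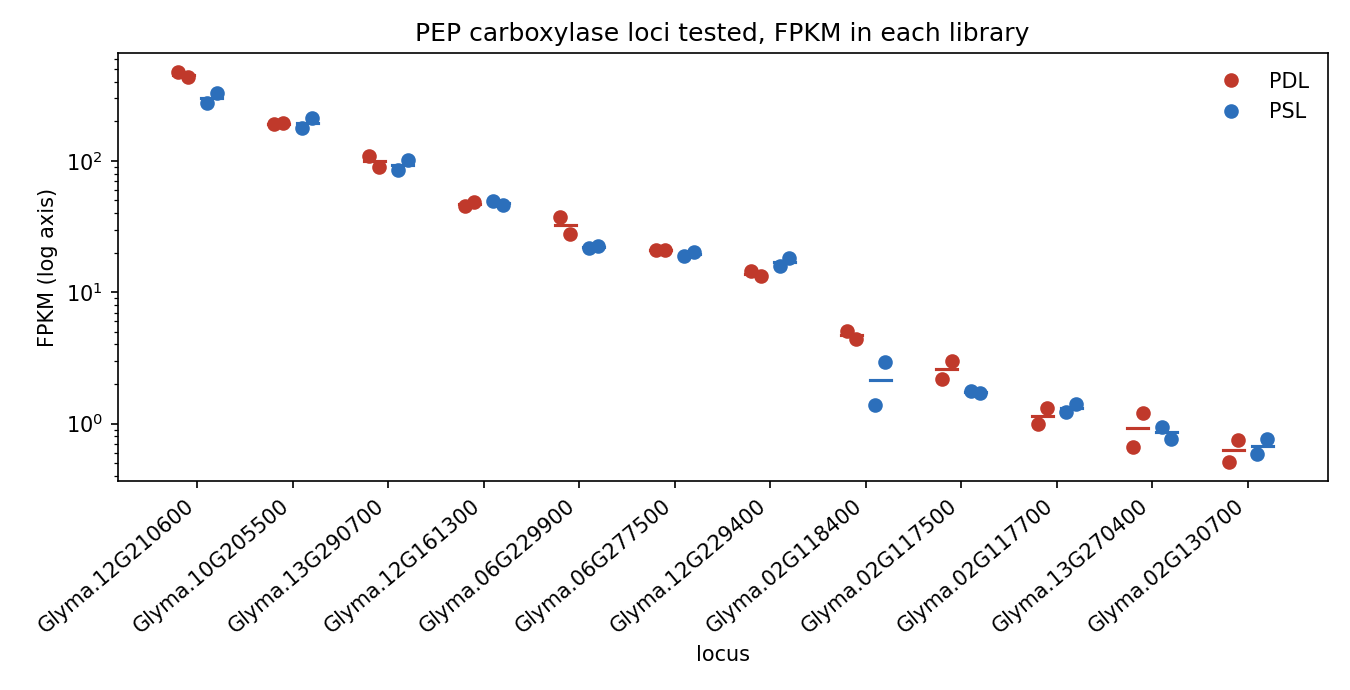
FPKM (log axis) of the 12 PEPC loci tested in each library, PDL in red and PSL in blue, with 1 point per library and a bar at the group mean, ordered by mean level. Glyma.12G210600, Glyma.06G229900 and Glyma.02G118400 have both PDL points above both PSL points, and Glyma.10G205500 and Glyma.13G290700 do not.

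Summed over the 16 loci, PEPC transcripts reached 897 and 841 FPKM in PDL, against 650.4 and 757 FPKM in PSL, a fold of 1.24 between the means. This sum includes the loci described as PEPC 4, among them the abundant Glyma.10G205500, whose groups overlapped. A sum without them was not made, and whether the kinase acts on their proteins was not analysed. The summed kinase FPKM was 50.1% and 48.4% of the summed PEPC FPKM in PDL, against 38.7% and 32.9% in PSL. This ratio includes the gene chosen by its difference. Without it, the fold of 1.49 for the other kinase loci stands beside the fold of 1.24 for the PEPC loci, and the difference between these folds was not tested.

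Set against the photosynthetic transcripts that also moved with the group, the sum over all 16 PEPC loci, those described as PEPC 4 included, was level. It amounted to 5.60 and 5.20 FPKM per 1000 summed FPKM of the leaf cell markers in PDL, against 5.22 and 5.54 in PSL, and the groups overlapped. Glyma.10G166600 stood at 1.60 and 1.39 per 1000 in PDL, against 1.21 and 1.20 in PSL, a fold of 1.24 beside 1.52 in FPKM. Glyma.20G222600 stood at 1.16 and 1.09 per 1000 in PDL, against 0.741 and 0.552 in PSL, a fold of 1.74 beside 2.16 in FPKM. Both folds were smaller on this measure. The part of the leaf cell markers in the kinase difference was not tested beyond this ratio.

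**Figure D4:**
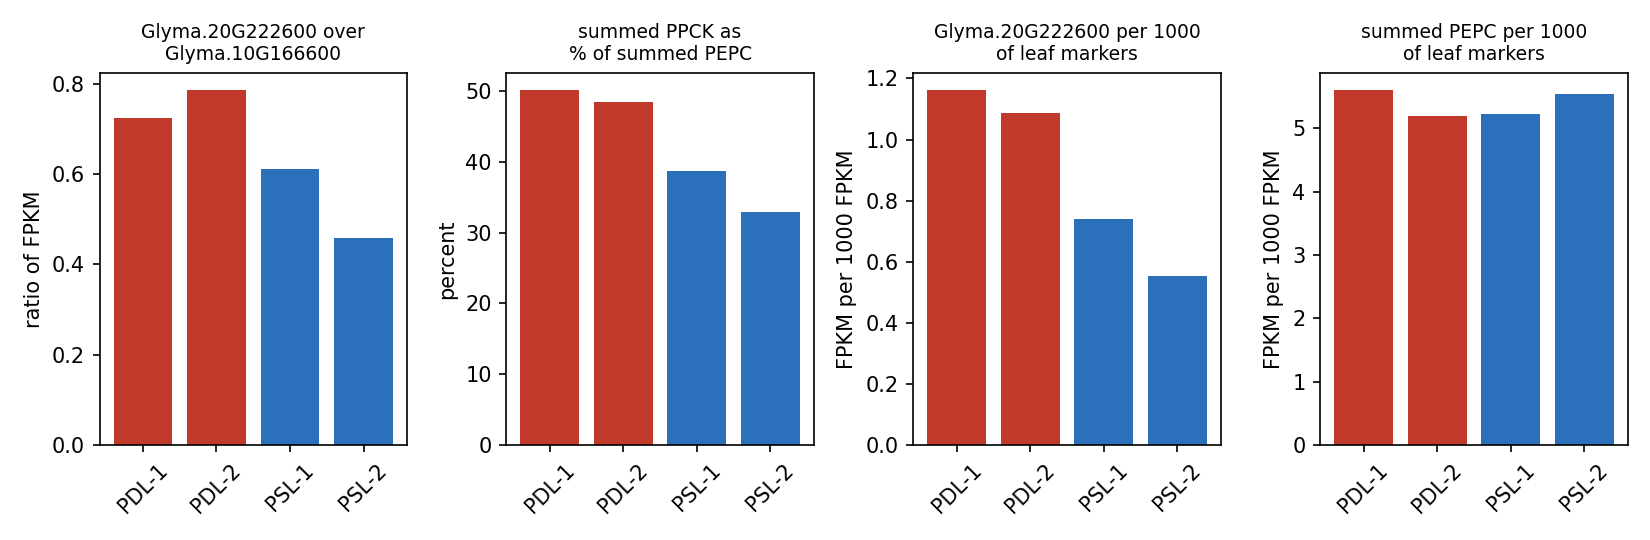
Bars from 0 for each library (PDL-1 and PDL-2 in red, PSL-1 and PSL-2 in blue): the ratio of Glyma.20G222600 to Glyma.10G166600, the summed kinase FPKM as a percent of the summed PEPC FPKM, and Glyma.20G222600 and the PEPC sum per 1000 summed FPKM of leaf cell markers. The left 3 panels contain Glyma.20G222600, which was chosen by its difference, so their higher PDL bars are a description only. The PEPC sum runs from 5.20 to 5.60 with the groups overlapping.

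A further 5 loci are described as PEPC family proteins but carry no GO term for PEPC activity, and the GO terms of 3 of them name isocitrate lyase or pantothenate synthesis. Of these, Glyma.07G064600 had 0.864 and 1.12 FPKM in PDL, against 0.152 and 0 FPKM in PSL. It reached the filter only through PDL, so its difference is given as values and not read as a call. The abundant Glyma.18G299700 had 215 and 232 FPKM in PDL, against 154 and 176 FPKM in PSL, with a log2 fold change of 0.44 (SE 0.12), and was not called. Glyma.18G299600 (0.64), Glyma.08G362200 (0.08) and Glyma.07G166800 (-0.63) were not called on the same log2 scale.

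Of the 5 loci nearest to Glyma.20G222600 on each side on chromosome 20, 0 were called, beside 2.03% of all loci tested. The closest, Glyma.20G222700 (a calcium-binding EF-hand protein), begins 1750 bp away and had 4.43 and 4.66 FPKM in PDL, against 4.72 and 4.70 FPKM in PSL. On the other side, Glyma.20G222500 (a type one serine/threonine protein phosphatase) had 11.6 and 11.7 FPKM in PDL, against 12.5 and 14.5 FPKM in PSL. The largest log2 fold change among these neighbours was 0.66, in Glyma.20G222200, which has no description and had 8.19 and 6.81 FPKM in PDL, against 4.08 and 5.35 FPKM in PSL (limma adjusted p = 0.533). Glyma.20G222800, for a pentatricopeptide repeat protein, followed with 0.49. The remaining neighbours (Glyma.20G222000, Glyma.20G222100, Glyma.20G222300, Glyma.20G222900, Glyma.20G223000 and Glyma.20G223200) had log2 fold changes from -0.56 to 0.18.

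Enzymes that supply or use PEP and malate were taken from lists of words in the descriptions, read against the 1.14% and 0.887% of all loci called higher and lower. Of 14 tested loci for enolase, PEP carboxykinase and pyruvate orthophosphate dikinase, which make PEP, 0 were called. Both PDL libraries were above both PSL libraries at 1 of the 14 and below them at 4, beside 20.2% and 21.1% of all loci. The leading enolase gene, Glyma.19G190900, had 113 and 108 FPKM in PDL, against 131 and 124 FPKM in PSL. Of 23 pyruvate kinase loci, the competing use of PEP, 0 were called. Both PDL libraries were above both PSL libraries at 6 of the 23 and below them at 2. The leading Glyma.02G165300 had 381 and 317 FPKM in PDL, against 273 and 304 FPKM in PSL.

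Carbonic anhydrases hydrate carbon dioxide to the bicarbonate that PEPC uses. Of 19 tested loci 0 were called. At 8 of the 19 both PDL libraries were above both PSL libraries, and at 4 below, beside 20.2% and 21.1% of all loci. The leading Glyma.05G007100 had 4644 and 4204 FPKM in PDL, against 3027 and 3741 FPKM in PSL, with a log2 fold change of 0.39 (SE 0.18, adjusted p = 0.605 in limma).

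Malate dehydrogenases, which reduce the oxaloacetate to malate, gave 0 calls among 14 loci, with 838 and 744 FPKM in PDL and 638 and 768 FPKM in PSL for the leading Glyma.07G185400. Malic enzymes, which split malate, gave 0 calls among 12. Their leading gene Glyma.01G008500 (NADP-malic enzyme 4) was lower in both PDL libraries, at 93.5 and 95.5 FPKM, against 121 and 117 FPKM in PSL, or -0.33 on the log2 scale (standard error 0.10, adjusted p = 0.527 in limma), and did not pass. Of 24 loci for malate and dicarboxylate carriers 0 were called, while the paper, by Cuffdiff, lists a malate transporter gene found only in PSL. The leading Glyma.11G133800 (dicarboxylate transporter 1, a plastid exchanger of malate and 2-oxoglutarate) had 202 and 189 FPKM in PDL, against 136 and 131 FPKM in PSL, a difference of 0.56 on the log2 scale (standard error 0.10, adjusted p = 0.471 in limma). The citrate branch (citrate synthase, aconitase and isocitrate dehydrogenase) gave 0 calls among 24 loci. Its leading aconitase family gene Glyma.07G032200 had 137 and 125 FPKM in PDL, against 112 and 137 FPKM in PSL. Malate dehydrogenases had both PDL libraries above both PSL libraries at 3 loci and below at 3, beside 20.2% and 21.1% of all loci. The same counts were 3 and 3 for malic enzymes, 7 and 1 for the carriers, and 3 and 5 for the citrate branch.

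Nitrogen assimilation draws on the carbon skeletons that PEPC makes, and its list had the highest median log2 fold change of the metabolic lists, 0.31 over 19 loci. Both PDL libraries were above both PSL libraries at 12 of the 19 and below them at 3, beside 20.2% and 21.1% of all loci. Of the 19, 1 was called higher. That locus, Glyma.14G165000 (nitrate reductase 1), had 14.1 and 19.6 FPKM in PDL, against 4.47 and 2.18 FPKM in PSL, a difference of 2.37 on the log2 scale (standard error 0.40, adjusted p = 0.470 in limma). The abundant nitrate reductase gene Glyma.06G109200 had 1947 and 2175 FPKM in PDL, against 1411 and 1400 FPKM in PSL, a difference of 0.55 on the log2 scale (standard error 0.13, adjusted p = 0.499 in limma), and was not called. The median of this list equals that of the leaf cell markers (0.31), whose part in it was not tested.

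Genes for proteins that act beside the kinase or are related to it were set beside these lists. Protein phosphatase 2A takes the phosphate off PEPC, and of its 40 tested loci 0 were called, beside 2.03% of all loci. Their median log2 fold change was -0.00. Both PDL libraries were above both PSL libraries at 7 of the 40 and below them at 12, beside 20.2% and 21.1% of all loci. The leading phosphatase gene Glyma.19G204400 had 45.3 and 46.7 FPKM in PDL, against 47.2 and 44.9 FPKM in PSL. Of 53 loci for calcium-dependent and related protein kinases, the relatives of PPCK, 0 were called, with a median of -0.04, although 1 was called higher with a pseudocount of 0.01, with no filter or with a replicate block, and 2 without PDL-1 or without PDL-2. The leading Glyma.05G213200 had 36.4 and 38.4 FPKM in PDL, against 43.6 and 47.6 FPKM in PSL. At 9 of the 53 both PDL libraries were above both PSL libraries, and at 16 below. By Cuffdiff, the paper lists a calcium-dependent protein kinase gene found only in PDL. Non-phosphorylating glyceraldehyde-3-phosphate dehydrogenase, which bypasses a Pi-dependent step of glycolysis, was represented by Glyma.17G075300 with 422 and 420.2 FPKM in PDL, against 445 and 462 FPKM in PSL, and 0 of 2 loci were called.

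Classical Pi starvation genes gave the most calls, 8 higher and 0 lower among 64 tested, beside 1.14% and 0.887% of all loci. The median log2 fold change of the 64 was 0.11. Both PDL libraries were above both PSL libraries at 24 of the 64 and below them at 12, beside 20.2% and 21.1% of all loci. The most abundant called was Glyma.01G113000, for sulfoquinovosyldiacylglycerol 2, the synthase of sulfolipid, with 47.5 and 34.0 FPKM in PDL, against 15.3 and 15.3 FPKM in PSL. Glyma.17G114700, described as SPX domain gene 2, a Pi sensor protein, had 22.2 and 17.2 FPKM in PDL, against 7.61 and 7.35 FPKM in PSL. These 2 and Glyma.20G222600 had log2 fold changes of 1.39, 1.37 and 1.12, while the kinase stood at a level several times higher. The kinase gene was picked by this contrast, and the 2 were named because they were called. Their sizes follow from these choices and are a description only. Glyma.08G056400 (purple acid phosphatase 17), Glyma.19G026600 (purple acid phosphatase 23) and Glyma.06G069000 (SPX domain gene 2) also rose, with log2 fold changes of 2.48, 1.22 and 1.44. The most abundant gene of the list, Glyma.05G247800 (purple acid phosphatase 3), was not called, with 139 and 114 FPKM in PDL, against 118 and 155 FPKM in PSL. The paper reports genes of several of these classes as changed in these same libraries. Among those it lists as raised are Glyma.17G114700, Glyma.06G069000, Glyma.08G056400 and Glyma.19G026600 themselves, under soybean gene names not used here. The calls are therefore not separate support. An acid phosphatase of another type, which the paper reports as lower, is outside the list.

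Clock transcripts were looked at because PPCK transcripts follow the time of day in other plants. Of 24 tested clock loci, 0 were called higher and 1 was called lower, beside 1.14% and 0.887% of all loci. The median log2 fold change was 0.04, and both PDL libraries were above both PSL libraries at 5 loci and below at 6. The leading pseudo-response regulator gene Glyma.07G049400 had 66.0 and 64.7 FPKM in PDL, against 55.0 and 71.3 FPKM in PSL. The locus called lower, Glyma.14G193700 (ELF4-like 1), had 4.51 and 5.38 FPKM in PDL, against 12.3 and 11.6 FPKM in PSL.

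Markers of other cells of a leaf were given for comparison, beside the 1.14% and 0.887% of all loci called higher and lower. Those of guard cells summed to 79.1 and 85.2 FPKM in PDL, against 69.0 and 74.1 FPKM in PSL, with 0 of 8 tested loci called. At 4 of the 8 both PDL libraries were above both PSL libraries, and at 0 below, beside 20.2% and 21.1% of all loci. Those of phloem summed to 892 and 793 FPKM in PDL, against 890.5 and 1085 FPKM in PSL, with 1 of 29 called lower. Both PDL libraries were above both PSL libraries at 4 of the 29 and below them at 5. The leading phloem gene was Glyma.16G157100, for sucrose-proton symporter 2. It had 235 and 214 FPKM in PDL, against 314 and 408 FPKM in PSL. Its difference of -0.67 on the log2 scale (standard error 0.17, adjusted p = 0.511 in limma) was not called. A list of root hair genes summed to 407 and 362 FPKM in PDL, against 413 and 341 FPKM in PSL, with 1 of 11 called lower. In that list 1 gene, Glyma.05G103600 (root hair specific 19), held most of the sum. Both PDL libraries were above both PSL libraries at 0 of the 11 and below them at 4. The few words searched for nodules, such as leghemoglobin and nodule-specific, matched no locus. The part of these cells in the kinase difference was not tested.

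**Figure D5:**
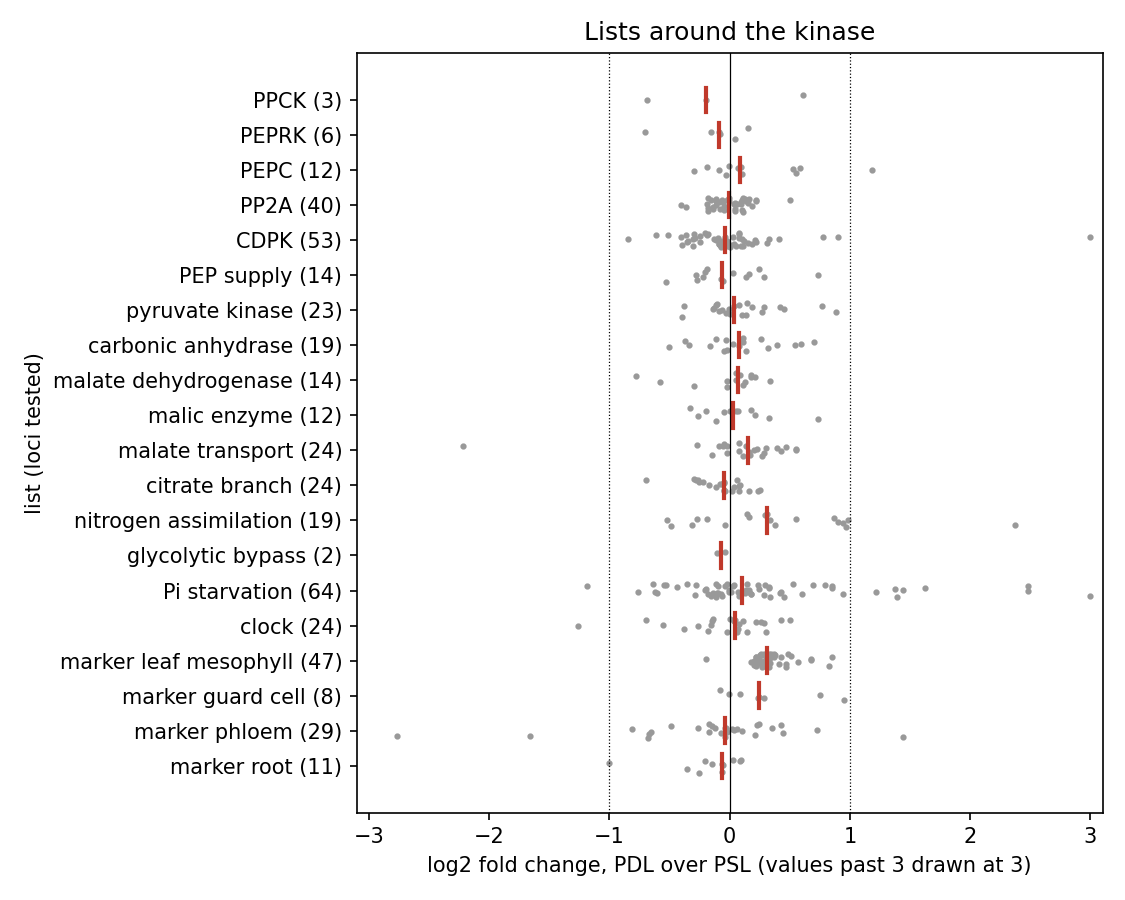
Log2 fold change, PDL over PSL, of each locus tested (grey points, with values past 3 drawn at 3) in each list, the number of loci beside the name, a red bar at the median and dotted lines at 1 and -1. Glyma.20G222600 is left out of its list; the leaf mesophyll markers and nitrogen assimilation both have a median of 0.31, and the called Pi starvation loci lie to the right of 1.

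The patterns most like that of Glyma.20G222600 were sought among 10590 single, described loci whose mean FPKM reached 10. The measure was the Euclidean distance of log2(FPKM + 0.1), centred on its mean over the 4 libraries, so that the smallest distances follow the contrast itself and carry no test. The 8 nearest had distances from 0.198 to 0.253, against 0.594 for Glyma.10G166600, which stood at position 149. The nearest was Glyma.06G081800, for another protein kinase, with 15.1 and 15.3 FPKM in PDL, against 6.57 and 5.87 FPKM in PSL.

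Both Glyma.18G284600 and Glyma.02G096800, described as glucose-6-phosphate dehydrogenase 2, the entry enzyme of the oxidative pentose phosphate pathway, were among the 8. Glyma.18G284600 had 35.1 and 33.5 FPKM in PDL, against 18.4 and 17.0 FPKM in PSL. Glyma.02G096800 had 36.8 and 39.0 FPKM in PDL, against 20.1 and 18.8 FPKM in PSL. Glyma.02G132100, for nitrite reductase, which makes ammonium from nitrite, had 199 and 214 FPKM in PDL, against 109 and 102 FPKM in PSL.

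The others were Glyma.11G226200 (a nucleotide-sugar transporter), Glyma.04G065600 (a lipid-transfer protein), Glyma.16G007700 (germin-like protein 1) and Glyma.20G186000 (a small subunit ribosomal protein). Their fold changes of the mean FPKM were 2.05, 2.20, 2.14 and 1.92. In all 8 the PDL libraries lay above the PSL libraries, which the measure makes likely.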

How the data were processed

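RNA-seq of leaves from 2 PDL and 2 PSL libraries was used. The authors filtered reads for base quality, aligned them to the soybean genome Gmax2.0 with TopHat (at most 2 mismatches and 40 alignments per read), and deposited FPKM from Cufflinks and Cuffdiff in 1 table of 39505 loci. Tool versions and use of strand are not given in the sources used here. The table holds FPKM per library and pooled FPKM per group, and 0 per-sample columns were left unmapped. Its columns of fold change, test statistic, p, q and significance hold the authors' own comparison and were not used. The table gives FPKM without counts, so no counting interval is given. The study states read totals per library, which were not used here.

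From the library FPKM, log2(FPKM + 0.1) was tested with limma 3.58.1 in R 4.3.3 (mean-variance trend, Benjamini-Hochberg adjustment over 32686 loci whose mean FPKM reached 0.3). This scale understates the change of low loci. Tables and figures were made with Python 3.11.15, pandas 2.3.3, numpy 2.4.6 and matplotlib 3.10.9. The fit was tested on simulated data. Only the pools of 3 plants are replicated, so p-values measure the spread between 2 pools per group.

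The gene and the lists were chosen with earlier results of these data known. Lists are word patterns in the descriptions, from which unrelated matches (for example acylhydrolases found by the letters LHY) were removed after the table had been read. Named loci are every PEPC, PEPC kinase and PEPC-related kinase locus, 5 neighbours on each side, and the 8 loci with the nearest pattern. For each list except the markers, the most abundant locus and the called loci are named, up to 6 in all, the more abundant first. Of the markers, Glyma.05G103600 is named. Alternatives were another pseudocount (1 or 0.01), filter (1 or none), scaling (median centring or quantiles), no variance trend, single annotated genes only, each library left out, and a replicate block. Added after seeing the data were the word patterns as first written and only loci above 0 in all 4 libraries. Merged loci (722) were kept under their joint name.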

Additional observations from a re-analysis of the deposited data

How the results depend on the processing

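The log2 fold change of Glyma.20G222600 stayed between 0.97 (without PSL-2) and 1.26 (without PSL-1) over the alternatives run. The counts behind each FPKM were not used here, 2 libraries per group limit every error, and a library left out leaves its group with 1 sample, assumed to vary like the other group. Over all loci, 373 were called higher and 290 lower. With a pseudocount of 1 these were 222 and 143, with no filter 586 and 455, and with a library left out 555 to 839 and 511 to 722. The lists without PEPC kinases had 10 loci called higher, but 6 with a pseudocount of 1. They had 1 called lower, but 2 with no filter and 1 to 3 with a library left out. The 1 PEPC locus called higher became 0 with a pseudocount of 1, with no mean-variance trend, and without PDL-1, PDL-2 or PSL-1. Among the other PEPC kinases and PEPC-related kinases 0 were called lower, but 1 without PDL-1. The Pi starvation loci called higher numbered 8, but 5 with a pseudocount of 1. The list of calcium-dependent and related kinases had 0 called higher and 0 lower, but 1 lower without PSL-2. Called loci also numbered 1 in place of 0 for PEP supply without PDL-2, pyruvate kinase without PSL-1, carbonic anhydrase without PSL-2 and malate dehydrogenase (lower) without PDL-1, and for malate carriers (lower) with no filter or without PSL-2. Nitrogen assimilation had 2 called higher in place of 1 without PDL-1 or PSL-1.

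The labels give no pairing of equal numbers, and the PDL and PSL differences between them correlated at -0.0788 over 32686 loci. With a replicate block 369 loci were called higher and 293 lower, the log2 fold change of Glyma.20G222600 was 1.12, and 1 PEPC locus was called higher. Of the counts by list, the block changed that of the calcium-dependent and related kinases, with 1 called higher in place of 0.

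Locus by locus, the alternatives were followed for the 3 other PEPC kinase, 6 PEPC-related kinase and 12 tested PEPC loci and for the PEPC family proteins. Of those among them that were not called, 12 changed sign when a library was left out. Other loci were not followed singly. With each library left out in turn, the log2 fold change ran between -0.58 and 0.19 for Glyma.03G251400, -0.0039 and 0.31 for Glyma.02G211400, -0.23 and 0.042 for Glyma.10G239600, and -0.36 and 0.058 for Glyma.04G097100. It ran between -0.24 and 0.075 for Glyma.06G098900,Glyma.06G099100, -0.030 and 0.11 for Glyma.16G199400, -0.32 and 0.45 for Glyma.13G270400, and -0.039 and 0.23 for Glyma.13G290700. For Glyma.02G130700 it ran between -0.33 and 0.15, for Glyma.10G205500 between -0.14 and 0.12, for Glyma.12G161300 between -0.083 and 0.029, and for Glyma.07G166800 between -1.68 and 0.42. The causes were not tested.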
